A study of Mus musculus with 36 samples.

Results

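The subject is the response of primary mouse hepatocytes to butyrate, measured by RNA sequencing in 6 libraries, 3 of hepatocytes given butyrate and 3 of control hepatocytes, out of the 36 libraries of the study. The members were taken from the labels of the samples. Hepatocytes came from male C57Bl/6 mice, of the C57BL/6NHsd substrain by the study's methods, through perfusion of the liver with collagenase, were plated on collagen and kept overnight in a medium without dexamethasone, and were then given 5 mM butyrate, 5 mM β-hydroxybutyrate (βOHB) or PBS as control for 6 h in Williams E medium. No group carried a transgene or a deletion. The number of mice behind the hepatocyte libraries is not given in the sources used here, so p-values measure the spread between these libraries, which may be technical. The hepatocyte βOHB libraries (n = 3) and the libraries of adipocytes, macrophages and myotubes under the same treatments (n = 3 each) entered the shared estimate of error. Butyrate was also compared with βOHB, and βOHB with control, in hepatocytes, and the butyrate response of hepatocytes with that of the other cell types. The βOHB libraries also set the levels by which genes were binned.

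Butyrate is a short-chain fatty acid made by gut bacteria, and portal blood carries it to the liver first. Inside cells it can be activated to its coenzyme A ester and oxidised in mitochondria, and it also inhibits histone deacetylases, the enzymes that remove acetyl groups from the tails of histones. Hepatocytes are the main cell of the liver. They secrete most plasma proteins, make and store glucose, oxidise fatty acids, form ketone bodies and bile acids, and clear ammonia and drugs.

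Promoter sequences are shown for the genes of smallest p-value in the comparison of butyrate with control, because the results below turn on them. They are *Txndc16*, *Slc35e2* and *H1f0* among raised genes and *Ikbkg*, *Dusp16* and *Ctbp1* among lowered genes. Each run holds the 150 bases before the start of the gene, read 5′ to 3′ on the strand of the gene, from RefSeq windows on build GRCm38.p6. Capitals mark matches, on either strand, to the letters GGGCGG of the GC box, to CCAAT of the box of that name, to TATAAA of the TATA box, to TGACGT of the cAMP response element or to GTTAAT from the HNF1 site. *Slc35e2* is named only.
Txndc16: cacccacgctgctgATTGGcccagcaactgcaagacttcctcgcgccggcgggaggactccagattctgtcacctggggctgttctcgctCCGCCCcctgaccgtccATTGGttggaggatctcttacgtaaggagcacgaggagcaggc
H1f0: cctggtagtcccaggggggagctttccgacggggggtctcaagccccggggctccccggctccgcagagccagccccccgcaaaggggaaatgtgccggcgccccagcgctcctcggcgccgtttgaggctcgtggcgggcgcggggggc
Ikbkg: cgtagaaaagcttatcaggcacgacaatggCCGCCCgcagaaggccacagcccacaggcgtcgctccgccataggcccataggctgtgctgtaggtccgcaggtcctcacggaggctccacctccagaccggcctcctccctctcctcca
Dusp16: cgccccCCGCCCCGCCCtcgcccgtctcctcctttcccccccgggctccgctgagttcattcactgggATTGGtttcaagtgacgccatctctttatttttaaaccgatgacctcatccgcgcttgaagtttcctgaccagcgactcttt
Ctbp1: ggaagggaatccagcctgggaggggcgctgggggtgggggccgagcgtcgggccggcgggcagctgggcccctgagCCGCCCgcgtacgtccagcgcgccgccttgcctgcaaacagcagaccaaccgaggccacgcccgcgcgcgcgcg
The *Txndc16* run lies at chr14:45219426-45219575 on the minus strand and holds 1 GC box and 2 CCAAT matches. The *H1f0* run, at chr15:79028062-79028211 on the plus strand, holds none of the 5 sets of letters. For *Ikbkg*, the window nearest the annotated gene start was taken, at chrX:74393141-74393290 on the plus strand, with 1 GC box. The *Dusp16* run, at chr6:134792629-134792778 on the minus strand, holds 2 GC boxes and 1 CCAAT, and the *Ctbp1* run, at chr5:33275005-33275154 on the minus strand, holds 1 GC box. Of all 32851 windows of 300 bases in the table, 35.7% hold a GC box, 37.4% a CCAAT, 13.6% a TATAAA, 7.51% a TGACGT and 7.10% a GTTAAT. These matches are descriptions of letters and not of bound sites.

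The table holds estimated counts per gene, given here as CPM, which are counts relative to the TMM-scaled size of each library. The 6 libraries held 18366192 to 22523728 counts. Between 11864 and 11921 genes were above 1 CPM in the controls, and 12084 to 12168 were under butyrate. Mitochondrial genes took 3.66% to 4.20% of the counts in the controls and 4.81% to 5.05% under butyrate, and the part of this shift in the results was not tested. All changes below are log2 fold changes of butyrate minus control ± SE with n = 3 against 3, from edgeR's quasi-likelihood test over 15340 genes with Benjamini-Hochberg adjustment, unless another comparison is named. A gene is said to have risen or fallen where its adjusted p was below 0.05.

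Butyrate changed most genes that hepatocytes express, in both directions. Of the 15340 tested genes, 4762 rose (31.0%) and 4975 fell (32.4%). A change beyond 1 on the log2 scale was found for 1934 raised genes (12.6%) and 1499 lowered genes (9.77%). In 68.5% of genes the 3 butyrate libraries did not overlap the 3 controls, so that a gene with separate groups is the common case here. The median log2 fold change of all tested genes was -0.0083.

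The direction of change varied with the level of the gene. Genes were put into 10 bins of 1534 by their mean CPM in the βOHB libraries, which this comparison does not use. In the highest bin, from 137 CPM upwards, 55.8% of genes fell and 15.1% rose, with a median log2 fold change of -0.25 ± 0.012 (SD over the 3 butyrate libraries). In the fifth bin, with a median of 11.9 CPM, 37.4% fell and 38.5% rose. The lower bins turned the other way, and in the second, at 0.0877 to 0.635 CPM, 33.8% rose and 7.24% fell. Changes beyond 1 on the log2 scale were more often increases below 7.86 CPM and more often decreases above it.

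**Figure D1:**
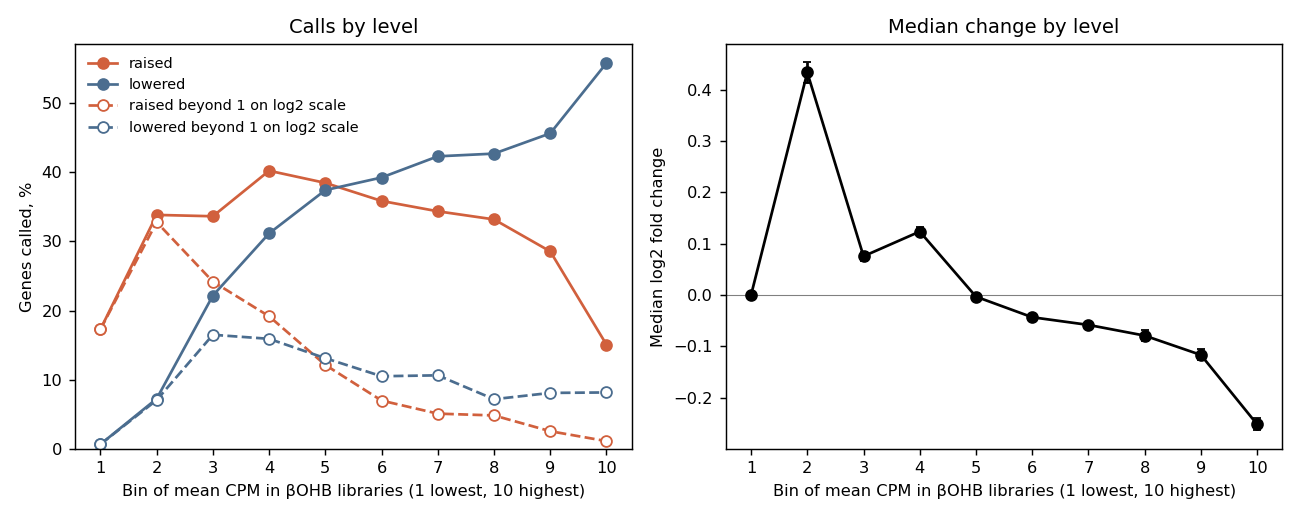
Response of hepatocyte genes to butyrate in 10 bins of 1534 genes, ordered by mean CPM in the βOHB libraries (x axis). On the left, the y axis is the percent of genes called, with filled points for all calls and open points for calls beyond 1 on the log2 scale; lowered genes reach 55.8% in bin 10. On the right, points are medians of the log2 fold change and bars the SD over the 3 butyrate libraries; the median runs from 0.43 in bin 2 to -0.25 in bin 10.

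The label of the cells was checked first. *Alb*, the gene of serum albumin, was at 27338, 29209.9 and 27524 CPM in the controls and 34930.0, 35190.0 and 32796 CPM under butyrate. *Trf*, encoding the iron carrier transferrin, was at 18369, 21002 and 18214 CPM and 23662, 22020.1 and 23235 CPM. *Apoh*, the gene of apolipoprotein H, was at 307, 329 and 307 CPM and 262, 241 and 236 CPM. All 3 markers were thus abundant in each library, and butyrate libraries lay above the controls for *Alb* and *Trf* and below them for *Apoh*. In the 36-library model none of the 3 was called (adjusted p 0.76, 0.68 and 0.065), whereas with only hepatocyte libraries all were (log2 fold change 0.33, 0.30 and -0.31, adjusted p 0.0015, 0.0026 and 0.0016).

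A feature of other libraries bears on such liver genes. *Alb* was at 23.5, 432 and 95.3 CPM in the 3 myotube butyrate libraries and at 18.4 CPM in 1 myotube βOHB library, against at most 0.0440 CPM in the myotube controls. These libraries enter the spread of each gene in the 36-library model. Counts of several lists of liver genes are therefore given also from a fit to only hepatocyte libraries, in which 31.7% of all genes rose and 30.8% fell. Leaving out the myotube libraries, an alternative chosen after seeing the data, gave 9993 called genes in place of 9737.

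Of the 10 nuclear genes that took the most reads in the controls, 9 encode secreted proteins, and their log2 fold changes lay between -0.45 for *Clu* and 0.29 for *Alb*. Besides *Alb* and *Trf* they were *Hpx*, *Eef1a1*, *Ahsg*, *Clu*, *Gc*, *Selenop*, *Cp* and *Hp*. *Eef1a1*, a translation elongation factor, fell from 11833, 11593 and 10746 CPM to 8598, 8643 and 7895 CPM (log2 fold change -0.44 ± 0.080, adjusted p 1.59e-05). *Hpx*, the gene of the haem carrier hemopexin, gave 14307, 15569 and 14242 CPM in the controls against 14537, 13192 and 13942 CPM under butyrate, ranges that overlapped. For the whole list of secreted plasma proteins, 38 members were tested, of which 1 rose (2.63%) and 8 fell (21.1%), with a median log2 fold change of -0.25, beside the 31.0% raised and 32.4% lowered of all genes, and with only hepatocyte libraries 8 rose and 21 fell (with myotube libraries left out, 6 and 21). The summed level of the list was 132506 to 139295 CPM in the controls and 133292 to 137193 CPM under butyrate, so single members moved while the total of the list in TMM-scaled CPM overlapped between groups. As a share of all counts the list took 11.4% to 11.9% in the controls and 12.0% to 12.3% under butyrate, which did not overlap. The largest decreases in it were those of *Igfals* and *Igfbp4*. *Igfals*, the acid-labile subunit that carries IGF1 in blood, fell from 18.1 ± 0.642 to 4.89 ± 0.514 CPM (log2 fold change -1.89 ± 0.19, adjusted p 1.25e-09), and *Igfbp4*, an IGF-binding protein, fell from 650.1 ± 24.1 to 212 ± 13.6 CPM (log2 fold change -1.62 ± 0.22, adjusted p 1.56e-07). *Serpina10* came next (log2 fold change -0.90 ± 0.17, adjusted p 7.23e-05). *Igf1* itself, which is also on the list of periportal genes, fell from 181 ± 11.7 to 112 ± 9.95 CPM (log2 fold change -0.70 ± 0.10, adjusted p 2.72e-07). The IGF-binding proteins *Igfbp1* and *Igfbp2* went the other way, from 1715 to 2365 CPM and from 42.0 to 62.9 CPM, and were not called. With only hepatocyte libraries their log2 fold changes were 0.50 and 0.62 (adjusted p 2.2e-04 and 1.3e-05).

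Genes with at least 10 CPM and at least 16 times the level of each other cell type, as measured in the βOHB libraries, numbered 345 among the tested genes. This set was defined after the data were seen. Of them, 42 rose (12.2%) and 149 fell (43.2%), beside the 31.0% raised and 32.4% lowered of all genes and the 15.1% raised and 55.8% lowered of the highest bin of level, with a median of -0.30 ± 0.023 (SD over the 3 butyrate libraries), and with only hepatocyte libraries 67 rose and 190 fell. At a ratio of 64, 151 genes remained and the median was -0.30.

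The raised genes of smallest p-value were mostly low in control hepatocytes. *Magee1* was at 0.690, 0.738 and 0.591 CPM in the controls and at 11.7, 12.4 and 12.5 CPM under butyrate, an increase of 18.0 times (log2 fold change 4.17 ± 0.13, adjusted p 7.58e-22). *Dpf1*, a subunit of neuronal chromatin remodelling complexes, gave 0.564, 0.430 and 0.355 CPM in the controls against 13.2, 12.3 and 11.0 CPM under butyrate, or 26.9 times more. *Rab3a*, a small GTPase of regulated secretion, gave 1.44, 1.41 and 1.71 CPM in the controls against 21.8, 19.8 and 22.8 CPM under butyrate (14.0 times). In these 3 genes the butyrate libraries stood far above every control.
*St6galnac4*, a sialyltransferase, was at 2.20, 2.71 and 2.42 CPM in the controls and 24.4, 21.9 and 22.7 CPM under butyrate. *Ssbp2*, a single-stranded DNA binding protein, rose 9.82 times and *Cnnm4*, a magnesium transporter, 4.92 times. *Txndc16* was at 1.69, 1.78 and 1.89 CPM in the controls and at 26.2, 26.1 and 24.9 CPM under butyrate, and its product is a thioredoxin-domain protein of the endoplasmic reticulum. *Slc35e2*, of a family of nucleotide sugar transporters, gave 27.5, 27.5 and 29.1 CPM in the controls against 129.9, 137 and 129.7 CPM under butyrate, and *H1f0* is described with the histones. In each of these genes all butyrate libraries lay above all controls.

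The lowered genes of smallest p-value had mid to high levels in the controls. *Ikbkg* was at 213, 241 and 209 CPM in the controls and at 30.3, 30.2 and 30.4 CPM under butyrate (log2 fold change -2.87 ± 0.060, adjusted p 1.75e-25). The gene lies on chromosome X from 74393290 to 74453854, encodes NEMO, the regulatory subunit of the IκB kinase, and overlaps *G6pdx* on the opposite strand. Reads were assigned to transcripts, so those of the 2 genes could be mixed only in shared exon sequence, which was not examined. *Dusp16* was at 446, 498 and 502 CPM in the controls and at 78.0, 75.3 and 75.8 CPM under butyrate (log2 fold change -2.66 ± 0.061, adjusted p 1.87e-24), and its product is a phosphatase of the MAP kinases JNK and p38. *Rin3* was at 76.4, 80.6 and 81.5 CPM in the controls and at 13.4, 12.7 and 11.7 CPM under butyrate, where *Rin3* encodes a Ras and Rab interactor. The 3 genes fell 7.29, 6.31 and 6.31 times, with no overlap between groups.
The other lowered genes of this group were *Trim8*, *Ctbp1*, *Ajuba*, *Ubtf*, *Maz*, *Rab11b* and *Msl1*. *Ubtf*, the upstream binding factor of RNA polymerase I, fell from 117 ± 4.47 to 27.2 ± 0.858 CPM (log2 fold change -2.10 ± 0.053, adjusted p 1.09e-23). *Maz*, a zinc finger factor that binds GC-rich promoters, fell from 106 ± 1.54 to 28.6 ± 2.12 CPM (log2 fold change -1.89 ± 0.051, adjusted p 5.58e-23). *Ajuba*, a LIM protein of the Hippo pathway, fell from 145 ± 8.57 to 31.3 ± 1.59 CPM (log2 fold change -2.21 ± 0.070, adjusted p 1.97e-21). The spread between butyrate libraries was small beside these differences, as the plot of single libraries shows.

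**Figure D2:**
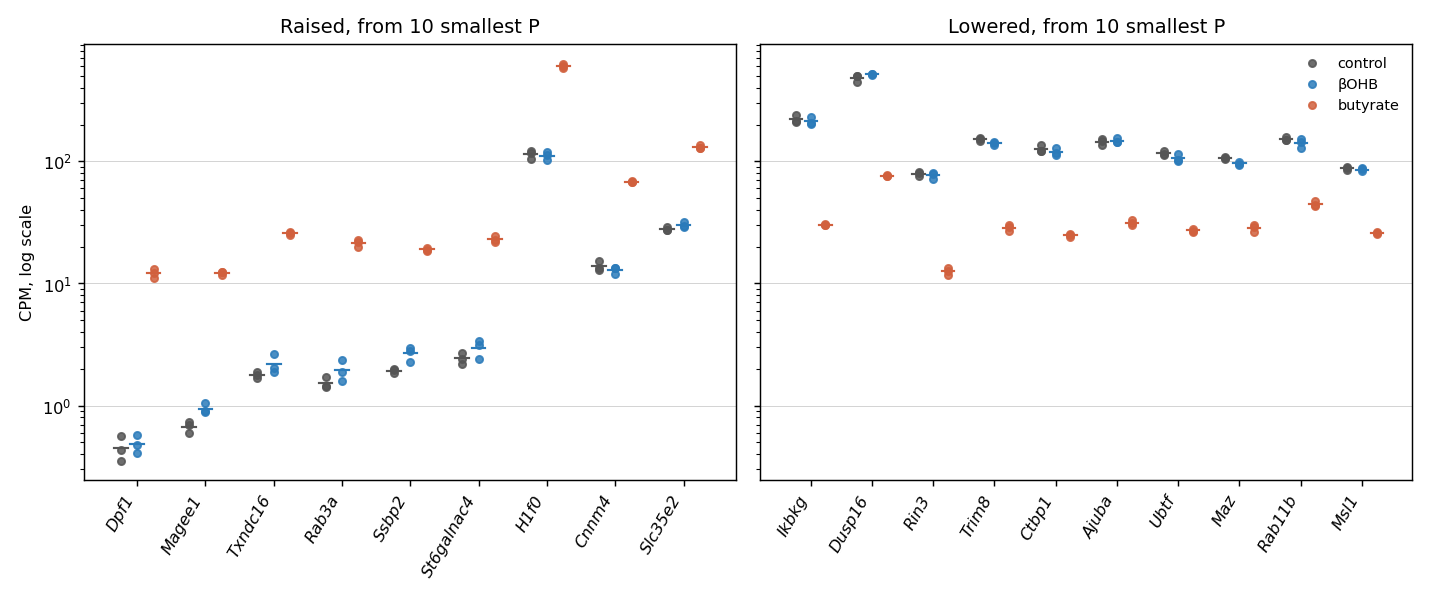
CPM on a log axis (y) of 19 genes (x), 9 of the 10 increases and the 10 decreases with the strongest test results, with 1 point for each library and a bar for the mean of 3; control, βOHB and butyrate are in separate colours. The butyrate points lie away from both other groups in every gene shown, while control and βOHB means lie much nearer to each other than either does to butyrate.

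By size of change, among genes with at least 10 CPM in the higher group, *Klb* stood out for a liver gene. It encodes β-Klotho, the coreceptor through which the hormones FGF21 and FGF19 signal, and it lies on chromosome 5 from 65348314 to 65384007. *Klb* was at 1.76, 2.15 and 1.83 CPM in the controls and at 56.4, 54.9 and 48.7 CPM under butyrate (log2 fold change 4.80 ± 0.19, adjusted p 8.16e-19), an increase of 27.8 times. Under βOHB it was at 2.52, 2.32 and 1.99 CPM. The gene of one of its ligands, *Fgf21*, was at 0.564, 1.05 and 0.650 CPM in the controls and 0.636, 0.496 and 0.540 CPM under butyrate, ranges that overlapped (*Fgf21* adjusted p 0.28).
Some of the other genes with the largest increases are known mainly from neurons, which was read from their descriptions and not tested. *Kif1a* and *Kif5c*, motor proteins of axonal transport, rose to 12.2, 12.4 and 15.4 CPM from at most 0.355 CPM and to 17.7, 20.3 and 21.3 CPM from at most 1.06 CPM. *Cyfip2*, a regulator of actin and of translation, gave 0.251, 0.307 and 0.473 CPM in the controls against 26.6, 25.4 and 28.6 CPM under butyrate, or 76.3 times. *Ncald*, a neuronal calcium sensor, gave 0.251, 0.492 and 0.355 CPM in the controls against 22.1, 22.2 and 22.2 CPM under butyrate, or 59.5 times, and *Ckb*, the brain form of creatine kinase, 0.878, 0.799 and 0.828 CPM in the controls against 24.2, 21.5 and 23.9 CPM under butyrate. *Synpo2*, *Tspyl4*, *Efna3* and *Dpf1* completed the 10 largest increases, which ranged from 26.0 times for *Kif5c* to 78.8 times for *Kif1a*.

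The 10 largest decreases held other functions. *Msrb2*, a mitochondrial methionine sulfoxide reductase, gave 11.5, 11.7 and 14.5 CPM in the controls against 0.689, 0.446 and 0.600 CPM under butyrate (log2 fold change -4.44 ± 0.18, adjusted p 4.43e-19). *Clcf1*, a cytokine of the interleukin 6 family, gave 15.9, 12.1 and 14.6 CPM in the controls against 0.583, 1.09 and 0.901 CPM under butyrate. A pair of interferon-inducible GTPases that restrict intracellular pathogens were among them: *Ifi47* was at 35.1, 46.7 and 41.8 CPM in the controls and at 2.97, 3.42 and 2.34 CPM under butyrate, and *Tgtp1* at 27.2, 33.1 and 37.6 CPM in the controls against 3.60, 2.08 and 2.88 CPM under butyrate, where the reads of *Tgtp1* may be shared with close copies. *Tapbpl*, which edits the peptides of MHC class I molecules, gave 34.9, 34.8 and 35.4 CPM in the controls against 3.87, 3.32 and 3.84 CPM under butyrate, and *Trim65*, a ubiquitin ligase of innate sensing, 13.2, 16.2 and 13.7 CPM in the controls against 2.07, 1.44 and 2.04 CPM under butyrate. *Cgref1* and *Serpinb6b* fell 8.03 and 7.96 times.
The remaining 2 of the 10 are known from endothelial cells. *Esm1*, endothelial cell-specific molecule 1, fell from 17.6, 16.5 and 16.1 CPM to 0.583, 0.991 and 0.721 CPM, and *Fcgr2b*, an Fc receptor of liver sinusoidal endothelial cells, from 14.2, 12.2 and 15.7 CPM to 0.954, 1.14 and 1.08 CPM.

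Endothelial markers were lower under butyrate. All 14 tested fell, where 32.4% of all genes did, with a median log2 fold change of -1.19, and their summed level was 171 to 195 CPM in the controls and 70.4 to 77.0 CPM under butyrate. *Cdh5*, the gene of VE-cadherin, gave 25.5, 32.1 and 26.7 CPM in the controls against 5.99, 7.09 and 7.27 CPM under butyrate (log2 fold change -2.05 ± 0.30, adjusted p 5.19e-07), and *Stab2*, a scavenger receptor of sinusoidal endothelium, 15.0, 23.7 and 18.6 CPM in the controls against 8.05, 9.81 and 8.77 CPM under butyrate. *Sox18*, an endothelial transcription factor, fell from 4.07 ± 0.282 to 0.374 ± 0.116 CPM (log2 fold change -3.41 ± 0.37, adjusted p 2.07e-09). In bulk RNA, fewer cells of a type and less RNA per cell cannot be told apart.
Of 13 tested markers of Kupffer cells and macrophages, 3 fell (23.1%, below the share of all genes, and 9 fell with only hepatocyte libraries, where 30.8% of all genes did), with a median of -0.91. Their summed level, 309 to 358 CPM in the controls and 143 to 161 CPM under butyrate, was in the controls mostly *Cd14*, a coreceptor for lipopolysaccharide that hepatocytes express too, at 229, 207 and 206 CPM in the controls against 35.9, 35.0 and 39.4 CPM under butyrate. *Clec4f*, which defines Kupffer cells, was at 1.13, 0.676 and 0.946 CPM in the controls against 0.424, 0.297 and 0.360 CPM under butyrate and was below the filter of the test. Stellate cell and fibroblast markers summed to 90.5 to 99.5 CPM and 67.5 to 75.4 CPM, and 13 members were tested, of which 1 rose (7.69%) and 7 fell (53.8%), with a median log2 fold change of -0.60, where 31.0% of all genes rose and 32.4% fell (2 rose and 8 fell with only hepatocyte libraries, and 0 and 7 without control replicate 1). Bile duct markers summed to 279 to 305 CPM and 298 to 383 CPM, and 5 members were tested, of which 1 rose (20.0%) and 1 fell (20.0%), with a median log2 fold change of -0.044 (0 and 2 without butyrate replicate 3). The endothelial list took at most 0.0167% and the macrophage list at most 0.0308% of the counts in any of the 6 libraries, and their part in the changes of other genes was not tested.

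Members of the list of hepatocyte transcription factors fell more often than they rose. In the ninth bin of level, at 72.9 to 137 CPM, 28.6% of genes rose and 45.6% fell, and the part of level in the counts of this list was not tested. Among hepatocyte transcription factors, 36 members were tested, of which 9 rose (25.0%) and 17 fell (47.2%), with a median log2 fold change of -0.16, where 31.0% of all genes rose and 32.4% fell (11 rose and 17 fell with only hepatocyte libraries). *Nr1h3*, encoding the oxysterol receptor LXRα, gave 49.98, 47.2 and 46.0 CPM in the controls against 12.4, 11.0 and 11.0 CPM under butyrate (log2 fold change -2.06 ± 0.11, adjusted p 1.26e-16), and *Nr0b2*, the corepressor SHP, was low throughout at 3.89, 2.21 and 3.13 CPM in the controls against 0.795, 0.297 and 1.14 CPM under butyrate. *Hnf4a*, a nuclear receptor central to hepatocyte identity, gave 651, 625 and 659 CPM in the controls against 315, 307 and 304 CPM under butyrate (log2 fold change -1.06 ± 0.23, adjusted p 5.88e-04), and under βOHB its mean was 683 CPM. In all 3 genes every butyrate library lay below every control.
Other members rose. *Hlf*, a PAR bZIP factor under clock control, rose from 10.4 ± 1.10 to 52.5 ± 1.82 CPM (log2 fold change 2.33 ± 0.10, adjusted p 4.28e-18). *Onecut2*, the paralog of HNF6, rose from 72.1 ± 16.9 to 171 ± 5.74 CPM and *Tbx3*, a T-box factor of pericentral hepatocytes, from 6.94 ± 0.809 to 13.0 ± 1.33 CPM. *Nr1h3* fell 4.17 times and *Hlf* rose 5.04 times, so the list was split.

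Chromatin genes were called in both directions. All 11 histone deacetylases were called, where 63.5% of all genes were, 7 raised and 4 lowered, with a median of 0.21. Without butyrate replicate 3, 6 were raised and 2 lowered, and without butyrate replicate 2, 5 and 3. The class I enzymes *Hdac1*, *Hdac2* and *Hdac3*, main targets of butyrate, rose by 0.32, 0.21 and 0.67 on the log2 scale, with *Hdac3* at 72.7, 77.4 and 73.9 CPM in the controls against 118, 114 and 124 CPM under butyrate. *Hdac11* rose from 11.5 ± 2.25 to 27.7 ± 1.66 CPM and the tubulin deacetylase *Hdac6* from 30.1 ± 2.02 to 53.6 ± 2.39 CPM. *Hdac7*, a class II enzyme, gave 8.84, 10.2 and 9.46 CPM in the controls against 1.91, 1.78 and 1.98 CPM under butyrate (log2 fold change -2.33 ± 0.21, adjusted p 3.28e-11). *Hdac9* was at most 0.246 CPM in the controls, with 6 counts in all, and 0 under butyrate, too low for a fold change.
Corepressors and acetylation readers and writers fell more often than they rose: 48 members were tested, of which 10 rose (20.8%) and 29 fell (60.4%), with a median log2 fold change of -0.35, where 31.0% of all genes rose and 32.4% fell. *Ctbp1*, C-terminal binding protein 1, gave 135, 121 and 122 CPM in the controls against 25.2, 24.2 and 25.2 CPM under butyrate (log2 fold change -2.34 ± 0.059, adjusted p 8.01e-24). *Mta3*, a subunit of the NuRD deacetylase complex, gave 39.3, 39.5 and 37.3 CPM in the controls against 10.1, 10.4 and 10.3 CPM under butyrate, and *Hcfc1*, a host cell factor that bridges transcription factors and histone modifiers, 147, 213 and 209 CPM in the controls against 41.3, 40.3 and 44.3 CPM under butyrate. *Sap30*, a subunit of the SIN3 complex, rose from 9.71 ± 1.56 to 21.8 ± 1.35 CPM, and its partner *Ing2* from 11.0 ± 0.873 to 20.7 ± 1.42 CPM.
Among linker histones and other histone genes, 25 members were tested, of which 13 rose (52.0%) and 8 fell (32.0%), with a median log2 fold change of 0.46, where 31.0% of all genes rose and 32.4% fell. *H1f0*, the replacement linker histone of quiescent cells, gave 118, 121 and 105.1 CPM in the controls against 603, 629 and 583 CPM under butyrate (log2 fold change 2.40 ± 0.064, adjusted p 2.82e-23). *Hist1h1c*, linker histone H1.2, gave 50.9, 57.2 and 52.0 CPM in the controls against 179, 165 and 174 CPM under butyrate (log2 fold change 1.69 ± 0.11, adjusted p 1.67e-14). *H1fx* rose from 0.675 ± 0.176 to 6.62 ± 0.498 CPM. *Hist1h1d* had 3 counts over the controls and 1.96, 2.23 and 1.68 CPM under butyrate, and its reads may be shared with other H1 genes. *Hist1h1b* had 0 counts over the 3 controls and at most 0.198 CPM under butyrate. The nucleosome-binding *Hmgn2* fell from 38.0 ± 2.25 to 12.7 ± 0.639 CPM and *Hmga1* from 835 ± 87.0 to 449.7 ± 11.3 CPM.
Splicing factors had the largest share of decreases of the plotted lists other than endothelial markers: 40 members were tested, of which 7 rose (17.5%) and 29 fell (72.5%), with a median log2 fold change of -0.49, where 31.0% of all genes rose and 32.4% fell. *Esrp2*, a splicing regulator of epithelial cells, gave 107, 117 and 112 CPM in the controls against 36.1, 37.5 and 38.5 CPM under butyrate (log2 fold change -1.59 ± 0.12, adjusted p 3.57e-13). *U2af2*, which recognises the 3′ splice site, gave 157, 139 and 146 CPM in the controls against 54.0, 51.6 and 52.4 CPM under butyrate, and *Hnrnpab* 564, 487 and 533 CPM in the controls against 201, 203 and 192 CPM under butyrate. *Srsf11*, *Tra2a* and *Rbfox2* rose by 0.49, 0.47 and 0.40 on the log2 scale.

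**Figure D3:**
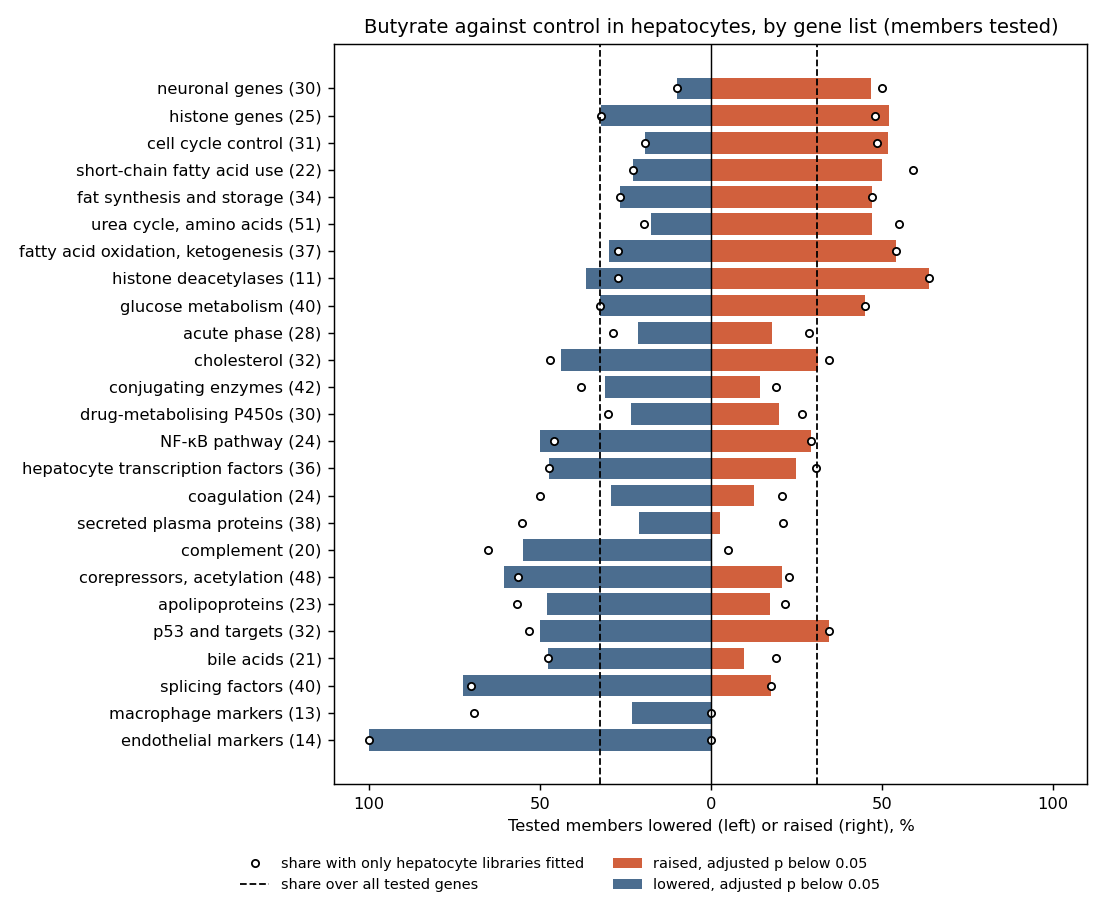
Percent of tested members of 25 gene lists (y axis, number tested in brackets) that fell (left) or rose (right) under butyrate in hepatocytes, ordered by median log2 fold change. Bars are from the 36-library model, open circles from a fit to only hepatocyte libraries, and dashed lines mark the 32.4% lowered and 31.0% raised of all tested genes; endothelial markers, at 14 of 14, are lowered most.

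The NF-κB pathway, through which hepatocytes answer inflammatory cytokines, had several core members lowered. In its list, 24 members were tested, of which 7 rose (29.2%) and 12 fell (50%), with a median log2 fold change of -0.13, where 31.0% of all genes rose and 32.4% fell. Besides *Ikbkg*, the kinase gene *Ikbke* gave 109.6, 97.2 and 108 CPM in the controls against 24.7, 23.5 and 24.9 CPM under butyrate (log2 fold change -2.11 ± 0.14, adjusted p 3.78e-14), and *Rela*, the p65 subunit, 217, 232 and 228 CPM in the controls against 85.8, 82.0 and 80.2 CPM under butyrate (log2 fold change -1.45 ± 0.056, adjusted p 1.24e-19). *Nfkbiz*, an atypical inhibitor, rose from 36.4 ± 4.03 to 92.6 ± 2.81 CPM and *Chuk*, the kinase subunit IKKα, from 93.2 ± 4.51 to 162 ± 6.90 CPM, so the 2 subunits IKKα and NEMO of 1 kinase complex moved apart. *Nfkbia*, the inhibitor IκBα and a defining target of the pathway, was at 98.5, 96.0 and 90.3 CPM in the controls against 101, 94.9 and 96.8 CPM under butyrate, ranges that overlapped.
Acute phase and cytokine response genes did not move one way, and 28 members were tested, of which 5 rose (17.9%) and 6 fell (21.4%), with a median log2 fold change of -0.020, where 31.0% of all genes rose and 32.4% fell (8 rose and 8 fell with only hepatocyte libraries). *Il1rap*, the accessory chain of the interleukin 1 receptor, rose from 14.0 ± 1.29 to 50.4 ± 0.774 CPM (log2 fold change 1.85 ± 0.088, adjusted p 1.49e-17), and *Steap4*, a metalloreductase, rose from 676 ± 49.4 to 1638 ± 29.4 CPM. *Saa4* fell from 58.6 ± 4.24 to 26.9 ± 2.03 CPM, the interferon γ receptor chain *Ifngr1* from 192 ± 8.21 to 101 ± 5.00 CPM and *Socs2* from 31.4 ± 3.78 to 17.1 ± 0.766 CPM. *Saa1*, the defining acute phase gene of the liver, gave 361, 317 and 304 CPM in the controls against 345, 324 and 329 CPM under butyrate, which overlapped.
Of 20 complement components, 11 fell (55.0%, where 32.4% of all genes did) and the other 9 were not called, with a median log2 fold change of -0.31 (1 rose and 13 fell with only hepatocyte libraries). Without control replicate 2, and also without butyrate replicate 3, 7 fell. *Masp1*, a protease of the lectin pathway, gave 95.01, 116 and 101 CPM in the controls against 33.0, 33.2 and 35.2 CPM under butyrate (log2 fold change -1.62 ± 0.12, adjusted p 8.07e-13), and *Mbl1*, its mannose-binding partner, 16.8, 17.6 and 17.7 CPM in the controls against 11.5, 8.13 and 9.49 CPM under butyrate. *C3*, the central component, gave 4915, 6344 and 6049 CPM in the controls against 8747, 8206 and 8953 CPM under butyrate, and did not pass the threshold in the 36-library model (*C3* adjusted p 0.31, and 1.29e-05 with only hepatocyte libraries). The summed level of the list, of which *C3* is the largest member, was 8806 to 10762 CPM in the controls and 11698 to 12400.5 CPM under butyrate, so the sum was higher while each of the 11 called members fell.
Among coagulation genes, 24 members were tested, of which 3 rose (12.5%) and 7 fell (29.2%), with a median log2 fold change of -0.20, where 31.0% of all genes rose and 32.4% fell (5 rose and 12 fell with only hepatocyte libraries). *Serpind1*, heparin cofactor II, fell from 148 ± 11.7 to 41.6 ± 4.31 CPM (log2 fold change -1.83 ± 0.15, adjusted p 1.92e-11), and *Serpinf2*, the inhibitor of plasmin, from 675 ± 23.8 to 329 ± 20.0 CPM. The vitamin K cycle genes *Ggcx* and *Vkorc1* rose by 0.64 and 0.45.

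Glucose genes moved in opposing directions within 1 pathway. In the list of gluconeogenesis, glycolysis and glycogen, 40 members were tested, of which 18 rose (45.0%) and 13 fell (32.5%), with a median log2 fold change of 0.074, where 31.0% of all genes rose and 32.4% fell. *Ppargc1a*, the coactivator PGC-1α that drives gluconeogenesis and mitochondrial genes in fasting, gave 4.58, 4.67 and 4.61 CPM in the controls against 36.9, 35.5 and 31.8 CPM under butyrate (log2 fold change 2.91 ± 0.16, adjusted p 2.66e-16). *Ppp1r3c*, which brings protein phosphatase 1 to glycogen, gave 6.84, 7.38 and 4.97 CPM in the controls against 47.6, 44.3 and 41.0 CPM under butyrate (log2 fold change 2.80 ± 0.17, adjusted p 1.34e-14). *Pfkfb3*, which makes the activator of glycolysis fructose 2,6-bisphosphate, rose from 23.4 ± 8.00 to 73.1 ± 6.49 CPM.
Enzymes of gluconeogenesis moved in both directions. *Pck1*, the cytosolic PEP carboxykinase, gave 86.5, 85.04 and 81.8 CPM in the controls against 38.8, 32.0 and 28.4 CPM under butyrate (log2 fold change -1.35 ± 0.21, adjusted p 2.88e-06), and *G6pc*, the glucose 6-phosphatase, 15.8, 14.6 and 11.2 CPM in the controls against 7.52, 7.48 and 5.40 CPM under butyrate (log2 fold change -1.02 ± 0.25, adjusted p 0.0014). Groups did not overlap in either gene, and *Ppargc1a* thus rose while *Pck1* and *G6pc* fell. *Pcx*, pyruvate carboxylase at the start of the pathway, rose from 211 ± 35.7 to 323 ± 17.2 CPM (log2 fold change 0.62 ± 0.10, adjusted p 5.24e-06), and *Fbp1*, fructose 1,6-bisphosphatase, rose from 66.7 ± 14.2 to 141 ± 5.97 CPM (log2 fold change 1.08 ± 0.20, adjusted p 1.32e-04).

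Genes of fatty acid use rose more often than they fell. For fatty acid oxidation and ketogenesis, 37 members were tested, of which 20 rose (54.1%) and 11 fell (29.7%), with a median log2 fold change of 0.25, where 31.0% of all genes rose and 32.4% fell. *Acot1*, a cytosolic thioesterase, gave 3.45, 1.84 and 2.01 CPM in the controls against 34.8, 34.0 and 30.1 CPM under butyrate (log2 fold change 3.76 ± 0.18, adjusted p 2.49e-17), whereas its mitochondrial neighbour *Acot2* fell from 29.4 ± 3.93 to 19.0 ± 1.38 CPM, and reads may be shared between these close paralogs. *Acsl1*, which activates long-chain fatty acids, gave 109, 131 and 122 CPM in the controls against 368, 365 and 344 CPM under butyrate (log2 fold change 1.57 ± 0.068, adjusted p 1.76e-18). *Cpt1a*, the rate-limiting entry into mitochondria, gave 164, 181 and 181 CPM in the controls against 243, 244 and 235 CPM under butyrate, and the peroxisomal enzyme *Ehhadh* rose from 98.2 ± 20.0 to 220.3 ± 15.0 CPM.
*Ppara*, the fatty acid receptor of the pathway, was at 20.9, 33.7 and 28.4 CPM in the controls against 30.5, 27.6 and 25.9 CPM under butyrate, ranges that overlapped. *Plin2*, the coat protein of lipid droplets, fell from 1086, 1032 and 1044 CPM to 551, 545 and 541 CPM (log2 fold change -0.95 ± 0.18, adjusted p 3.31e-05).
Genes that take up and activate short- and medium-chain fatty acids, butyrate among them, were also raised more often than lowered: 22 members were tested, of which 11 rose (50%) and 5 fell (22.7%), with a median log2 fold change of 0.38, where 31.0% of all genes rose and 32.4% fell. *Acsm3*, a mitochondrial ligase that forms butyryl coenzyme A, gave 8.03, 9.04 and 8.34 CPM in the controls against 33.6, 33.6 and 33.1 CPM under butyrate (log2 fold change 1.98 ± 0.17, adjusted p 1.70e-11). *Acss3*, a propionyl coenzyme A synthetase, gave 0.564, 0.676 and 0.414 CPM in the controls against 8.27, 6.74 and 7.15 CPM under butyrate. *Acss1* had 0 counts in the controls and 0.159, 0.149 and 0.300 CPM under butyrate, where 3 counts over the 3 controls would be 0.0610 CPM. *Acsm5* fell from 10.6 ± 0.704 to 3.93 ± 0.359 CPM, and of the transporters *Slc16a12* fell from 40.7 ± 3.43 to 19.1 ± 0.968 CPM and *Slc16a6* from 25.8 ± 3.23 to 15.2 ± 0.0391 CPM.
Among genes of fat synthesis and storage, 34 members were tested, of which 16 rose (47.1%) and 9 fell (26.5%), with a median log2 fold change of 0.31, where 31.0% of all genes rose and 32.4% fell. *Elovl2*, an elongase of polyunsaturated fatty acids, gave 83.3, 86.6 and 85.3 CPM in the controls against 488, 493 and 449.8 CPM under butyrate (log2 fold change 2.49 ± 0.18, adjusted p 3.13e-13). *Thrsp*, the lipogenic protein Spot 14, gave 10.3, 10.3 and 11.5 CPM in the controls against 52.6, 46.5 and 48.7 CPM under butyrate, and *Dgat2*, which makes the final step to triglyceride, 182, 189 and 178 CPM in the controls against 533, 496 and 492 CPM under butyrate (log2 fold change 1.47 ± 0.076, adjusted p 1.20e-16). *Elovl3* was low, at 0.878, 0.615 and 0.532 CPM in the controls against 3.76, 3.37 and 4.504 CPM under butyrate. The droplet protein *Plin4* fell from 13.2 ± 2.57 to 2.31 ± 0.754 CPM and *G0s2*, an inhibitor of triglyceride lipase, from 5.02 ± 0.504 to 2.05 ± 0.491 CPM.

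**Figure D4:**
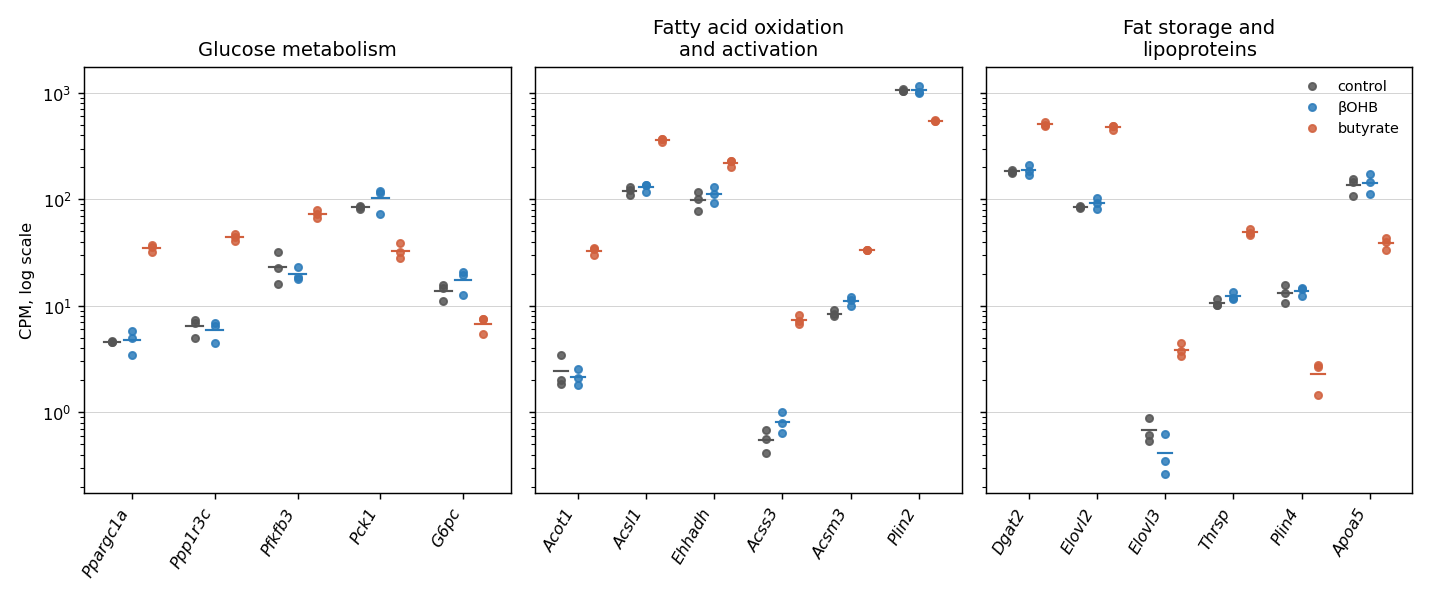
CPM on a log axis (y) of 17 metabolic genes (x) in the 9 hepatocyte libraries, with 1 point for each library and a bar for the mean of 3, in colours for control, βOHB and butyrate. Butyrate points lie above the controls for *Ppargc1a*, *Ppp1r3c*, *Acot1* and *Elovl2* and below them for *Pck1*, *Plin4* and *Apoa5*.

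Cholesterol genes were split. In their list, 32 members were tested, of which 10 rose (31.2%) and 14 fell (43.8%), with a median log2 fold change of -0.089, where 31.0% of all genes rose and 32.4% fell. *Insig1* and *Insig2*, both retention factors of the SREBP pathway in the endoplasmic reticulum, moved in opposite directions: *Insig1* gave 249, 268 and 255 CPM in the controls against 709.9, 684 and 669 CPM under butyrate (log2 fold change 1.42 ± 0.093, adjusted p 2.68e-14) and *Insig2* 299.8, 314 and 275 CPM in the controls against 141, 139 and 139 CPM under butyrate (log2 fold change -1.09 ± 0.055, adjusted p 8.04e-17). *Dhcr7*, a late step of synthesis, rose from 155 ± 2.67 to 302 ± 15.1 CPM, and *Soat2*, which esterifies cholesterol, fell from 20.0 ± 0.140 to 7.69 ± 0.369 CPM. *Mylip* rose from 0.915 ± 0.0789 to 1.87 ± 0.529 CPM.
Of apolipoproteins and lipoprotein genes, 23 members were tested, of which 4 rose (17.4%) and 11 fell (47.8%), with a median log2 fold change of -0.37, where 31.0% of all genes rose and 32.4% fell (5 rose and 13 fell with only hepatocyte libraries). *Apoa5*, an activator of triglyceride clearance, gave 147, 154 and 107 CPM in the controls against 43.2, 40.0 and 33.3 CPM under butyrate (log2 fold change -1.81 ± 0.18, adjusted p 1.88e-08). *Lipg*, endothelial lipase, rose to 7.63, 8.42 and 7.87 CPM from at most 1.24 CPM, and *Sort1*, a sorting receptor of apolipoprotein B particles, gave 29.7, 38.3 and 33.9 CPM in the controls against 102, 103 and 103 CPM under butyrate (log2 fold change 1.59 ± 0.10, adjusted p 1.27e-14). *Pltp* was called as raised although 2 butyrate libraries fell within the range of the controls (2.82, 1.41 and 1.54 CPM in the controls against 2.65, 3.32 and 2.70 CPM under butyrate). *Apob* itself gave 2289.6, 3787 and 3741 CPM in the controls against 4158, 4512 and 4578 CPM under butyrate, with 1 control far below the other 2 (*Apob* adjusted p 0.38, and 0.0094 with only hepatocyte libraries).
Bile acid genes fell more than they rose, and 21 members were tested, of which 2 rose (9.52%) and 10 fell (47.6%), with a median log2 fold change of -0.40, where 31.0% of all genes rose and 32.4% fell (4 rose and 10 fell with only hepatocyte libraries, and 1 and 10 without butyrate replicate 1). *Baat*, which conjugates bile acids with taurine or glycine, gave 47.0, 51.5 and 50.6 CPM in the controls against 13.0, 10.3 and 11.3 CPM under butyrate (log2 fold change -2.11 ± 0.17, adjusted p 8.89e-12). *Hsd3b7*, an early step of synthesis, gave 85.1, 93.6 and 75.6 CPM in the controls against 30.5, 28.3 and 26.4 CPM under butyrate, and *Acox2*, which shortens the side chain in peroxisomes, 211, 213 and 204 CPM in the controls against 81.8, 78.6 and 78.2 CPM under butyrate. *Cyp7a1*, the rate-limiting enzyme, was at 0, 0 and 0.0591 CPM in the controls against 0.0530, 0.0991 and 0.0600 CPM under butyrate and was not tested. *Cyp39a1* and *Cyp27a1* rose by 0.38 and 0.29.

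Amino acid catabolism rose in more genes than it fell. In the list of the urea cycle and amino acid catabolism, 51 members were tested, of which 24 rose (47.1%) and 9 fell (17.6%), with a median log2 fold change of 0.29, where 31.0% of all genes rose and 32.4% fell (28 rose and 10 fell with only hepatocyte libraries). *Tat*, tyrosine aminotransferase, was among the 3 largest increases. *Tdo2*, which opens the tryptophan ring, gave 91.5, 73.1 and 69.3 CPM in the controls against 241, 248 and 227.5 CPM under butyrate (log2 fold change 1.61 ± 0.18, adjusted p 5.32e-09), and *Got1*, an aspartate aminotransferase, 119, 123 and 127 CPM in the controls against 326, 329 and 329 CPM under butyrate. *Slc38a2*, a neutral amino acid transporter, fell from 206 ± 11.9 to 97.0 ± 2.18 CPM, the tyrosine pathway enzyme *Hgd* from 52.98 ± 3.33 to 26.7 ± 1.00 CPM and *Gpt2* from 658 ± 40.0 to 365 ± 11.2 CPM. *Cps1*, the first enzyme of the urea cycle, gave 654, 808 and 705 CPM in the controls against 1149, 1089 and 936 CPM under butyrate, above the controls in each library (*Cps1* adjusted p 0.16, and 2.55e-04 with only hepatocyte libraries).
Genes of both zones of the liver lobule had medians near 0. Of periportal genes, 19 members were tested, of which 6 rose (31.6%) and 3 fell (15.8%), with a median log2 fold change of 0.023, and of pericentral genes, 22 members were tested, of which 8 rose (36.4%) and 3 fell (13.6%), with a median log2 fold change of 0.034, where 31.0% of all genes rose and 32.4% fell. With only hepatocyte libraries, 8 rose and 3 fell in the periportal and 9 rose and 3 fell in the pericentral list. Both medians changed sign when single butyrate libraries were left out, reaching -0.032 for periportal genes without butyrate replicate 1 and -0.056 at the lowest for pericentral genes, where replicates 1 and 2 each turned the sign. The 8 raised pericentral genes included *Axin2*, a target of Wnt signalling, at 0.376, 0.123 and 0.177 CPM in the controls against 3.28, 3.12 and 4.504 CPM under butyrate (log2 fold change 3.98 ± 0.34, adjusted p 1.06e-11), *Znrf3* at 11.2, 15.2 and 12.8 CPM in the controls against 31.4, 31.5 and 30.4 CPM under butyrate and *Nkd1* from 11 counts in the controls to 0.583, 0.842 and 0.661 CPM. *Cyp1a2* and *Cyp2a5* of the same list fell, with -0.82 and -1.23 on the log2 scale, and *Cyp2e1* gave -0.38 and was not called. Of the periportal genes, *Sds*, serine dehydratase, rose from 8.66 ± 1.28 to 17.1 ± 0.567 CPM and *Uroc1* from 22.2 ± 2.38 to 35.5 ± 2.83 CPM.

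Drug metabolism changed in single genes. The list of drug-metabolising cytochromes P450 also holds their reductase *Por* and the electron carrier *Cyb5a*. In it 30 members were tested, of which 6 rose (20.0%) and 7 fell (23.3%), with a median log2 fold change of -0.12, where 31.0% of all genes rose and 32.4% fell (8 rose and 9 fell with only hepatocyte libraries). *Cyp1a1*, a target of the aryl hydrocarbon receptor, gave 10.4, 7.75 and 4.61 CPM in the controls against 0.477, 0.545 and 0.540 CPM under butyrate (log2 fold change -3.85 ± 0.35, adjusted p 2.66e-10). *Cyp2r1*, a vitamin D 25-hydroxylase, fell from 12.6 ± 0.560 to 3.74 ± 0.212 CPM, and *Cyp2u1* rose from 8.77 ± 0.929 to 24.1 ± 1.19 CPM. *Cyp3a11* gave 278, 374 and 321 CPM in the controls against 341, 322 and 269 CPM under butyrate, ranges that overlapped. The list of conjugating enzymes also holds some oxidases, hydrolases and a quinone reductase of drug metabolism. In it 42 members were tested, of which 6 rose (14.3%) and 13 fell (31.0%), with a median log2 fold change of -0.12, where 31.0% of all genes rose and 32.4% fell (8 rose and 16 fell with only hepatocyte libraries). *Ugt2b35* fell from 305 ± 20.3 to 104.8 ± 4.46 CPM (log2 fold change -1.54 ± 0.17, adjusted p 5.95e-07), the quinone reductase *Nqo1* from 18.6 ± 2.29 to 8.16 ± 0.175 CPM and *Gsta1* from 540.5 ± 38.0 to 279 ± 20.9 CPM, while *Ces1d*, a carboxylesterase, rose from 6.55 ± 0.600 to 16.6 ± 0.264 CPM. Reads of the *Cyp2*, *Ugt2b*, *Gsta* and *Ces1* families may be shared between close paralogs.

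Several cell cycle inhibitors rose from low levels. For cyclin-dependent kinase inhibitors and cyclins, 31 members were tested, of which 16 rose (51.6%) and 6 fell (19.4%), with a median log2 fold change of 0.38, where 31.0% of all genes rose and 32.4% fell. *Cdkn2d*, the inhibitor p19INK4d, gave 1.44, 1.84 and 1.48 CPM in the controls against 20.7, 21.4 and 24.1 CPM under butyrate (log2 fold change 3.79 ± 0.15, adjusted p 1.31e-19). *Cdkn1c*, the inhibitor p57, gave 0.251, 0.615 and 0.296 CPM in the controls against 2.12, 3.12 and 2.34 CPM under butyrate. *Cdkn1a*, the inhibitor p21, gave 323, 339 and 318 CPM in the controls against 305, 307 and 296 CPM under butyrate and was not called (*Cdkn1a* adjusted p 0.30). *Myc* gave 128, 130.2 and 129.8 CPM in the controls against 37.8, 37.2 and 42.6 CPM under butyrate (log2 fold change -1.72 ± 0.10, adjusted p 5.59e-16), and *Cdk6* fell from 178 ± 22.0 to 50.1 ± 3.79 CPM. Of proliferation genes, 20 members were tested, of which 8 rose (40.0%) and 4 fell (20.0%), with a median log2 fold change of 0.28, where 31.0% of all genes rose and 32.4% fell (5 rose and 3 fell without control replicate 1, 5 and 4 without control replicate 2, and 5 and 2 without butyrate replicate 2), with *Bub1b* at 2.70, 2.09 and 2.66 CPM in the controls against 10.2, 7.98 and 10.0 CPM under butyrate and *Pcna* at 68.8, 62.8 and 66.2 CPM in the controls against 42.2, 48.0 and 41.4 CPM under butyrate. Their summed level overlapped between groups, 242 to 293 CPM in the controls and 279 to 296 CPM under butyrate.
Of p53 and its targets, 32 members were tested, of which 11 rose (34.4%) and 16 fell (50%), with a median log2 fold change of -0.38, where 31.0% of all genes rose and 32.4% fell. *Trp53* gave 146, 148 and 149.8 CPM in the controls against 46.0, 42.0 and 42.2 CPM under butyrate (log2 fold change -1.77 ± 0.075, adjusted p 1.01e-18), *Bcl2l1*, the survival factor Bcl-xL, 271, 245 and 268 CPM in the controls against 78.8, 73.6 and 75.8 CPM under butyrate and *Phlda3*, an inhibitor of Akt, 29.4, 26.9 and 27.2 CPM in the controls against 9.06, 8.13 and 8.71 CPM under butyrate. *Sesn1* and *Pmaip1* rose 4.07 and 3.25 times.
Among dual-specificity phosphatases and other inhibitors of MAP kinase signalling, 18 members were tested, of which 9 rose (50%) and 6 fell (33.3%), with a median log2 fold change of 0.083, where 31.0% of all genes rose and 32.4% fell. *Dusp3* fell from 256 ± 20.3 to 76.7 ± 2.36 CPM and *Dusp14* rose from 4.16 ± 0.228 to 15.5 ± 0.0797 CPM. Of inositol phosphate enzymes, 42 members were tested, of which 19 rose (45.2%) and 4 fell (9.52%), with a median log2 fold change of 0.15, where 31.0% of all genes rose and 32.4% fell (19 rose and 7 fell with myotube libraries left out, and 19 and 6 with DESeq2). *Itpka*, an inositol trisphosphate kinase of neurons, rose to 7.95, 7.23 and 7.21 CPM from 11 counts over the 3 controls, *Plcd1* rose to 3.39, 2.82 and 3.06 CPM from 9 counts, and *Inppl1*, the phosphatase SHIP2, gave 101, 123 and 114 CPM in the controls against 44.7, 44.4 and 48.5 CPM under butyrate (log2 fold change -1.30 ± 0.071, adjusted p 4.08e-16).
In the list of the unfolded protein and amino acid stress response, 39 members were tested, of which 14 rose (35.9%) and 15 fell (38.5%), with a median log2 fold change of -0.050, where 31.0% of all genes rose and 32.4% fell. *Atf3* gave 34.9, 37.1 and 33.9 CPM in the controls against 189.6, 196 and 195 CPM under butyrate (log2 fold change 2.46 ± 0.10, adjusted p 2.77e-19) and *Ddit3* rose from 11.4 ± 2.29 to 28.7 ± 0.751 CPM, whereas *Xbp1*, the factor of secretory capacity, gave 432, 404 and 407 CPM in the controls against 135, 134 and 126 CPM under butyrate (log2 fold change -1.65 ± 0.062, adjusted p 8.22e-20) and *Atf5* 749, 732 and 699 CPM in the controls against 208, 191 and 210.2 CPM under butyrate. Of clock genes, 22 members were tested, of which 10 rose (45.5%) and 7 fell (31.8%), with a median log2 fold change of 0.12, where 31.0% of all genes rose and 32.4% fell, with *Bhlhe41* at 3.26, 3.20 and 2.48 CPM in the controls against 12.3, 15.2 and 9.79 CPM under butyrate and *Nr1d2*, encoding the repressor REV-ERBβ, at 53.2, 50.5 and 53.3 CPM in the controls against 20.8, 25.5 and 19.3 CPM under butyrate. The core activator *Arntl*, or BMAL1, gave 25.6, 27.4 and 27.1 CPM in the controls against 55.8, 54.5 and 54.6 CPM under butyrate.
Of iron and redox genes, 28 members were tested, of which 6 rose (21.4%) and 13 fell (46.4%), with a median log2 fold change of -0.17, where 31.0% of all genes rose and 32.4% fell (11 rose and 13 fell with only hepatocyte libraries). *Keap1*, which holds the antioxidant factor NRF2 in check, gave 88.8, 95.3 and 81.7 CPM in the controls against 32.2, 27.2 and 25.8 CPM under butyrate (log2 fold change -1.64 ± 0.070, adjusted p 1.30e-18), *Bmp6* rose from 1.87 ± 0.226 to 6.95 ± 0.563 CPM, and the metallothionein *Mt1* rose from 999 ± 96.4 to 1899.8 ± 59.4 CPM. Of fetal and dedifferentiation genes, 24 members were tested, of which 6 rose (25.0%) and 8 fell (33.3%), with a median log2 fold change of -0.27, where 31.0% of all genes rose and 32.4% fell: *Hmga2* and *Sox4* fell 4.26 and 3.49 times and *Cd24a* rose 4.32 times, while *Afp*, the fetal albumin, gave 7.15, 6.40 and 6.50 CPM in the controls against 6.41, 6.19 and 7.63 CPM under butyrate, which overlapped.

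Some genes at or near 0 in control hepatocytes rose under butyrate. Of 38066 genes with at most 3 counts summed over the 3 controls, 1430 were tested. These passed the filter only through other libraries, which could include the butyrate ones, so their share of calls depends on the filter. Among them 257 rose (18.0%), a smaller share than the 31.0% of all genes, and such genes could hardly fall. In the lowest bin of level, 17.3% rose. Of the 38066 genes, tested or not, 57 reached a mean of 1 CPM under butyrate and 1 did under βOHB. *Dpysl5*, a neuronal protein of axon guidance, had 2 counts in the controls and 7.26, 7.19 and 8.89 CPM under butyrate, a ratio of 189.5 with a 95% counting interval of 52.1 to 1570 (exact Clopper-Pearson, from 2 against 430 counts). *Elovl4*, an elongase of very long fatty acids, had 1 count and 2.60, 3.17 and 2.70 CPM. *Slc2a4*, the insulin-sensitive glucose transporter GLUT4 of muscle and fat, had 0 counts in the controls and 2.70, 2.03 and 1.62 CPM, where 3 counts over the 3 controls would be 0.0610 CPM. *Gli1*, a Hedgehog target, had 0 counts and 1.96, 1.78 and 2.52 CPM. *Ebf3*, *Ankrd34a*, *Cend1*, *B4galnt4*, *Osbp2* and *Olig1* completed the 10 of highest level, at means of 2.14 to 2.66 CPM under butyrate. Intervals and floors cover counting error only.
In the list of neuronal and synaptic genes, 30 members were tested, of which 14 rose (46.7%) and 3 fell (10.0%), with a median log2 fold change of 1.35, beside the 31.0% raised and 32.4% lowered of all genes and the 33.8% raised and 7.24% lowered of the second bin of level. *Mapt*, the microtubule protein tau, rose to 2.33, 2.92 and 2.40 CPM from 5 counts over the controls, and *Celsr3* to 1.85, 1.64 and 1.62 CPM from 2 counts. *Nefl*, with 1 count in the controls, reached at most 0.781 CPM. *Rest*, the repressor of neuronal genes, gave 37.9, 46.5 and 46.8 CPM in the controls against 28.5, 30.7 and 30.2 CPM under butyrate (log2 fold change -0.55 ± 0.083, adjusted p 8.12e-07), and *Camk2b* fell from 39.7 ± 3.13 to 19.3 ± 0.253 CPM.

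The hepatocyte response differed from that of the other cell types in many genes. The response of hepatocytes minus the mean response of adipocytes, macrophages and myotubes was tested as 1 contrast, and 7103 genes passed (46.3%), 3387 with a higher and 3716 with a lower response in hepatocytes (2744 and 4504 with libraries scaled by their totals alone). Beyond 1 on the log2 scale there were 829 (5.40%) and 1087 (7.09%). Called genes of opposite direction in hepatocytes and in all 3 other cell types numbered, of 4648 called in all 4, 87 that rose in hepatocytes and fell elsewhere and 152 that fell in hepatocytes and rose elsewhere, and all of both kinds passed the test of the difference, as their choice all but fixes.
Among the 8 higher genes of smallest p-value, *Crot*, the peroxisomal carnitine octanoyltransferase, gave 164, 174 and 173 CPM in the controls against 524, 532 and 514 CPM under butyrate, a log2 fold change of 1.62 in hepatocytes against -0.075, -0.11 and 0.52 in adipocytes, macrophages and myotubes (difference 1.51 ± 0.064, adjusted p 8.78e-18). *Atp8b2*, a phospholipid flippase, rose by 3.37 in hepatocytes, from 2.73 to 28.2 CPM, and gave 0.072, 0.48 and -0.25 in the others, in the same order. Its control level in those was 39.9 to 69.4 CPM. *Rasa3*, a Ras GTPase-activating protein, rose by 1.76 from 7.60 CPM, and gave -0.55, -0.57 and 0.12 in the others, where its control level was 60.3 to 248 CPM. *B4galt6*, which makes lactosylceramide, rose by 2.04 from 4.99 CPM in hepatocytes. It fell by 0.24, 0.52 and 0.21 in the others, where its control level was 36.8 to 198 CPM.
Among genes lower in hepatocytes than elsewhere, *Jup*, junction plakoglobin, gave 229.6, 250.1 and 259 CPM in the controls against 105.3, 105.3 and 104 CPM under butyrate in hepatocytes, a log2 fold change of -1.23, against 1.45, 2.27 and -0.34 in adipocytes, macrophages and myotubes. *Smpd3*, a neutral sphingomyelinase, fell from 63.2, 65.2 and 68.1 CPM to 9.80, 9.12 and 11.0 CPM and rose in the other 3 cell types, whose levels stayed at or below 6.33 CPM. *Insig2* fell by 1.09 on the log2 scale in hepatocytes and rose by 0.55, 0.77 and 0.71 elsewhere, with a difference that passed the test (*Insig2* adjusted p 3.55e-19). *Card10*, a scaffold of NF-κB signalling, fell by 0.29 in hepatocytes and rose by 1.86 to 4.30 elsewhere. Its control level was 61.4 CPM in hepatocytes and 0.280 to 4.62 CPM in the other cell types.

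**Figure D5:**
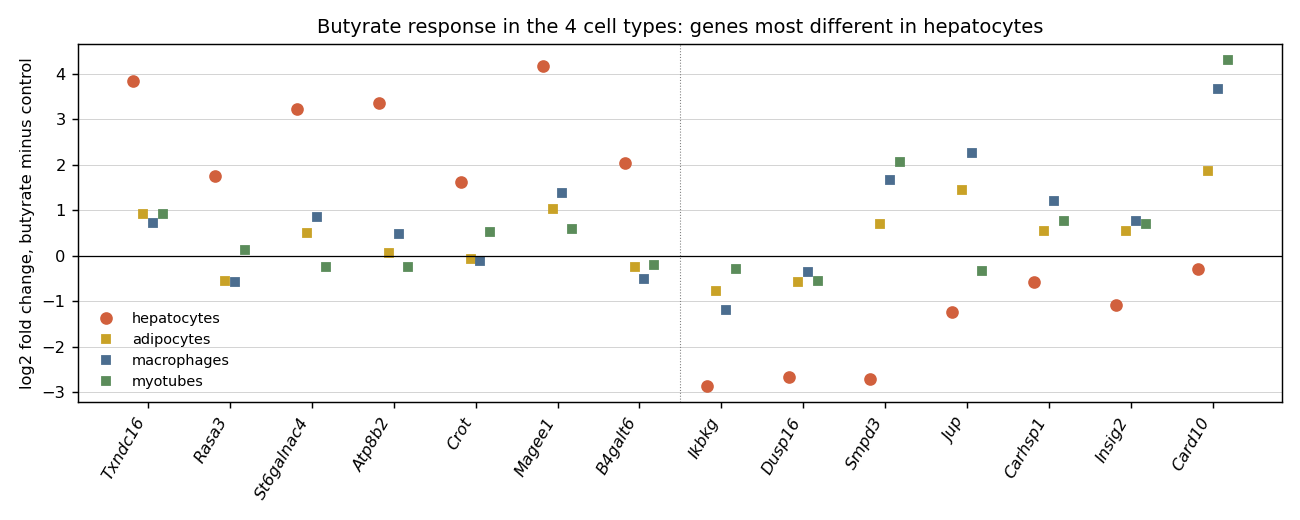
Log2 fold change of butyrate minus control (y axis) in hepatocytes (circles) and in adipocytes, macrophages and myotubes (squares) for 14 of the 16 genes of smallest p-value in the test of the difference (x axis), 7 higher and 7 lower in hepatocytes, from 3 against 3 libraries each. *Jup* and *Insig2* lie below 0 in hepatocytes, and *Insig2* lies above 0 in all 3 other cell types.

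Butyrate was compared directly with βOHB, which is butyrate with a hydroxyl group on carbon 3, at the same dose and time. This was the only pair of compounds, and 9747 genes differed (63.5%), 4681 higher (30.5%) and 5066 lower (33.0%) under butyrate (5226 and 4446 with libraries scaled by their totals alone), with 3326 beyond 1 on the log2 scale (21.7%), namely 11.8% of all genes higher and 9.92% lower under butyrate. *Klb* differed by 4.54 ± 0.18 on the log2 scale (*Klb* adjusted p 1.04e-18), *H1f0* by 2.44 ± 0.064 and *Ikbkg* by -2.81 ± 0.059.
The comparisons of both compounds with control share the control libraries, so their values are set side by side only. βOHB against control gave -0.052 for *Ikbkg*, 0.10 for *Dusp16*, -0.039 for *H1f0* and 0.25 for *Klb* on the log2 scale, where butyrate gave -2.87, -2.66, 2.40 and 4.80. A single gene passed under βOHB, *Cyp2c29*, at 13.2 ± 1.52 CPM in the controls and 42.7 ± 8.33 CPM under βOHB (edgeR's quasi-likelihood test, adjusted p 0.035), and it was named for being the only one. It was no longer called without control replicate 2, control replicate 3 or βOHB replicate 1, and 29 genes passed without βOHB replicate 2, 48 with no filter on low counts and 2 with DESeq2.

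The study names 10 genes for butyrate, and in hepatocytes 5 of them rose and 5 fell. As they were chosen on these libraries, their direction here is not independent evidence. The study also reports qPCR of *Dgat2*, *H1f0*, *Inppl1* and *Phlda3*, in which butyrate regulated them. The raised genes were *Dgat2*, *H1f0*, *Hist1h1c*, *Hist1h1d* and *Hist1h1e*, the last at 0.251, 0.123 and 0.118 CPM in the controls against 1.70, 0.942 and 1.44 CPM under butyrate. The lowered genes were *Hcfc1*, *Anp32b*, *Phlda3*, *Phf2* and *Inppl1*. *Anp32b*, a histone chaperone and acetylation inhibitor, gave 255, 195 and 203 CPM in the controls against 66.7, 70.4 and 65.1 CPM under butyrate (log2 fold change -1.69 ± 0.074, adjusted p 2.02e-18), and *Phf2*, a histone demethylase, 35.6, 42.7 and 40.3 CPM in the controls against 15.0, 16.0 and 16.3 CPM under butyrate (log2 fold change -1.33 ± 0.080, adjusted p 3.69e-15). In all 10 genes the butyrate libraries did not overlap the controls, as in 68.5% of all genes.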

How the data were processed

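RNA was sequenced on a BGISEQ-500 as paired reads of 150 bases. The authors estimated transcript abundance with Salmon 1.2.1 on a GENCODE mouse transcriptome and deposited estimated counts per gene. Whether the stated scaling by transcript length and library size had been applied to them could not be told from the totals. The values were used as estimated counts, rounded to whole numbers.

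Genes above 1 CPM in at least 6 of 36 libraries were kept (15340 of 54347). edgeR 4.0.16 (R 4.3.3) fitted 12 group means to all libraries after TMM scaling, and quasi-likelihood F tests were adjusted by Benjamini-Hochberg. CPM levels use TMM-scaled library sizes, so levels are comparable between libraries but not between genes of different length. Contrasts were butyrate against control, butyrate against βOHB, and the butyrate response minus the mean of the other cell types. Alternatives used limma 3.58.1 (voom), DESeq2 1.42.0, other scalings, filters and sets of libraries. In simulated data on 15340 genes with 200 changed, the test of butyrate against control recovered 95.5% (86% of 50 genes at 1.5-fold) with 11 false calls. The simulation gave all genes the same spread, that of the hepatocyte libraries, and no uneven liver transcripts between myotube libraries. Its recovery therefore does not cover liver genes with wide errors in the 36-library model, such as *Alb* (SE 0.72).

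Members and gene lists were chosen with earlier results of these data known. Genes named were the 10 raised and 10 lowered of smallest P, the 10 of largest change in each direction with at least 10 CPM in the higher group, the top 3 in each direction and defining members of each list, the 10 most abundant, the 8 in each direction that differed most clearly from other cell types, the 10 of highest level among genes with at most 3 control counts, and those the study names. Predicted genes and pseudogenes were left out of the ranked groups other than the lists and the most abundant. Some genes that these rules pick are not reported here, and counts over lists include them. Gene positions are from GENCODE M21 on GRCm38.p6, which held 54094 of 54347 genes. Strand was not used in counting as far as the sources used here state, so reads from exon sequence that overlapping genes share may not be told apart. Promoter windows matched 74.9% of tested genes, below the 80% needed, so a comparison of promoter letters between gene groups was void.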

Additional observations from a re-analysis of the deposited data

Results flagged for a closer look

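The 14 genes below were picked out because hepatocytes answered butyrate differently from adipocytes, macrophages and myotubes as a mean in a test of the difference itself (edgeR's quasi-likelihood test), as described above. The differences on the log2 scale were 2.99 for *Txndc16*, 2.09 for *Rasa3*, 2.86 for *St6galnac4*, 3.27 for *Atp8b2*, 1.51 for *Crot*, 3.17 for *Magee1* and 2.37 for *B4galt6*. In the other direction they were -2.11 for *Ikbkg*, -2.16 for *Dusp16*, -4.20 for *Smpd3*, -2.36 for *Jup*, -1.41 for *Carhsp1*, -1.76 for *Insig2* and -3.57 for *Card10*. All 14 passed in each of the 15 alternatives run for them. Without the myotube libraries, some of which held liver transcripts, the difference of *Jup* was -3.09. Control levels differed between cell types, with *Card10* at 61.4 CPM in hepatocytes and 0.280 to 4.62 CPM elsewhere. *Atp8b2* was at 2.73 CPM in control hepatocytes and 39.9 to 69.4 CPM in the other controls.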

How the results depend on the processing

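The count of genes that butyrate changed against control was 9737 and lay between 9188 and 9305 when single hepatocyte libraries were left out, and between 7561 (P below 0.001) and 10078 (another filter on low counts) otherwise. The difference from the other cell types gave 7103 genes, 6471 to 6741 without single libraries and 4775 to 7295 otherwise. Butyrate against βOHB gave 9747 genes, 9169 to 9430 without single libraries and 7541 to 10110 otherwise. With library totals alone, 5183 of 9657 called genes rose, against 4762 of 9737. Same-numbered control and butyrate libraries did not deviate together (r = -0.00023, 0.0093 and 0.013 across genes), so the numbers were not taken as pairs, and the replicate block gave 9723 genes. Of 678 named or listed genes that were called, 571 kept call and direction in every alternative, and none of 999 reversed under a call. The medians of the acute phase, periportal, pericentral, stress response and bile duct lists, all close to 0, changed sign in at least 1 alternative. The fits without myotube libraries and the ratio of 64 were chosen after seeing the data. With 3 libraries a group, changes near 1.5-fold are the least surely found.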
